A study of Oryctolagus cuniculus with 20 samples.

Results

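S100A6 is 1 of 23669 genes in a table of read counts from rabbit tricuspid valves, and 1 of the 8683 genes with enough reads to be tested. It was selected on its values in these valves, a large difference between dexfenfluramine and control, and its row was found by its symbol in the study's supplementary list of genes (identifier ENSOCUG00000024096). Its levels and fold changes are therefore a description, given with their errors and without a test.

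S100A6, also called calcyclin, is a small calcium-binding protein of the S100 family, which carries a pair of EF-hand motifs and works as a dimer. It is abundant in fibroblasts and other mesenchymal cells, and its transcript was first found through its induction by growth factors and serum. On binding calcium it exposes a surface that contacts partner proteins, among them annexins, the ubiquitin ligase adaptor CACYBP and proteins of the actin cytoskeleton.

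The valves came from female New Zealand white rabbits aged 8 weeks at the start. The control group received water, and the treated groups received serotonin at 80 mg/kg/day, pergolide at 0.5 mg/kg/day or dexfenfluramine at 20 mg/kg/day orally in drinking water for 16 weeks. The dexfenfluramine dose is that of the labels and methods, and the study's results section states a lower one. Serotonin acts directly on its receptors, pergolide is an ergot-derived dopamine agonist and dexfenfluramine is an appetite suppressant that releases serotonin. Each group had 5 valves. By the study's methods the valves were collected separately, and its plots of qRT-PCR on 5 samples per treatment count each dot as 1 rabbit. The labels do not say in words that each valve came from a different rabbit, so p-values measure the spread between these valves. The total count per valve ran from 3247091 to 5921025, with medians of 4573978 in control, 3890579 in serotonin, 4794216 in pergolide and 4294294 in dexfenfluramine. Dexfenfluramine replicate 3 stood apart, with the lowest total of the 20 valves and a summed level of cardiomyocyte markers of 12546 CPM (counts scaled to a common library size) against 52864 to 71839 in the other valves of its group. Log2 fold changes against control, calls within lists and mean marker sums that use this valve are given with and without it.

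In the control valves, S100A6 had 14, 32, 40, 13 and 21 reads in replicates 1 to 5, which were 5.04, 8.66, 7.01, 3.82 and 4.82 CPM after TMM normalization. In the serotonin valves, it had 28, 8, 25, 25 and 11 reads, or 6.51, 2.53, 7.29, 6.69 and 3.08 CPM. These 2 groups overlapped, and the lowest and the second lowest valve of all 20 were both serotonin valves.

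In the pergolide valves, S100A6 had 137, 127, 80, 104 and 133 reads, or 26.2, 21.7, 16.8, 18.3 and 23.6 CPM. In the dexfenfluramine valves, it had 117, 106, 153, 84 and 110 reads, or 25.1, 18.2, 27.5, 15.6 and 17.6 CPM. Each of these 10 valves was above each of the 10 control and serotonin valves, and the 2 drug groups overlapped with each other. The highest S100A6 level of all valves was that of dexfenfluramine replicate 3, and the lowest of the 10 drug-treated valves was dexfenfluramine replicate 4. In bulk tissue, more cells that express S100A6 in the drug-treated valves and more S100A6 RNA per cell cannot be told apart, nor can fewer cells and less RNA per cell in control and serotonin.

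**Figure D1:**
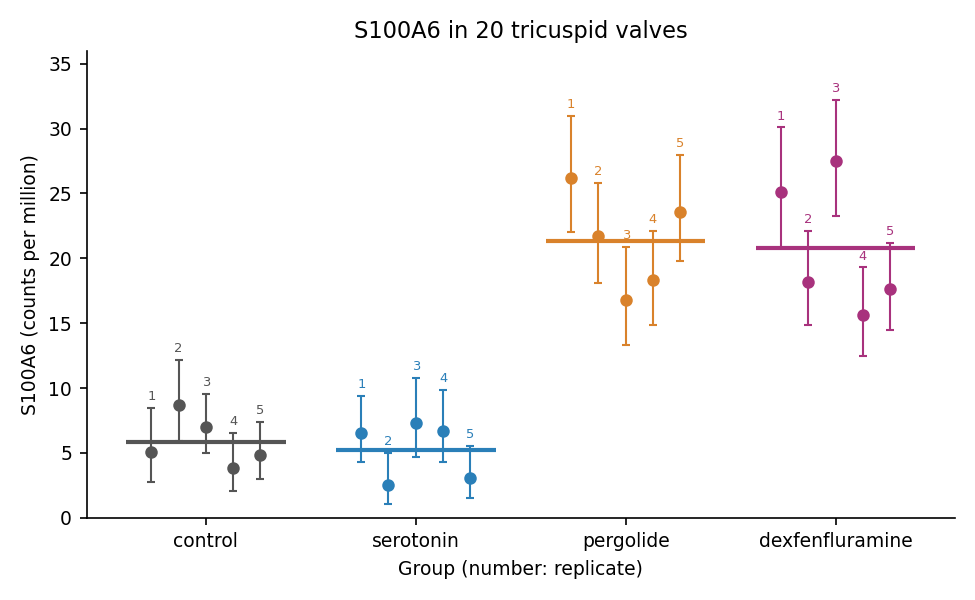
S100A6 in CPM in each valve, by group, with the replicate number above each point. Bars are exact 95% Poisson intervals, which cover counting error only, and horizontal lines are group means. All pergolide and dexfenfluramine valves, from 15.6 CPM upwards, sit above all control and serotonin valves, up to 8.66 CPM.

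The read numbers set the precision of a single valve. With an exact 95% Poisson interval, which covers counting error only, the 8 reads of serotonin replicate 2 corresponded to 1.09 to 4.98 CPM. The 153 reads of dexfenfluramine replicate 3 corresponded to 23.3 to 32.2 CPM.

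The mean S100A6 level was lowest in serotonin, 5.22 ± 2.23 CPM (SD, n = 5), followed by control at 5.87 ± 1.94 CPM (SD, n = 5). Dexfenfluramine had 20.8 ± 5.17 CPM (SD, n = 5) and pergolide 21.3 ± 3.83 CPM (SD, n = 5). Without replicate 3, the dexfenfluramine mean was 19.1 ± 4.14 CPM (SD, n = 4). The differences between serotonin and control and between dexfenfluramine and pergolide were smaller than the SDs of those groups. The step between control and dexfenfluramine was larger than the SD of either group.

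Among the 8683 tested genes, 236 (2.72%) had all 10 drug-treated valves above all 10 others. In S100A6 the lowest drug-treated valve was 1.81 times the highest other valve, and 6 genes, S100A6 included, had a ratio at least as large. All 5 pergolide valves lay above all 5 control valves in 689 genes (7.94%), and all 5 dexfenfluramine valves in 717 genes (8.26%). S100A6 was in each of these sets. Its selection on dexfenfluramine against control favours this, also in the other sets, which use the same control valves.

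Serotonin differed from control by a log2 fold change of -0.17 (SE 0.29) in S100A6, with a 95% interval of -0.77 to 0.43. Pergolide against control gave 1.84 (SE 0.25), a 3.57-fold higher level with an interval of 2.50 to 5.12. Dexfenfluramine against control gave 1.80 (SE 0.25), or 3.48-fold with an interval of 2.43 to 4.99. The 3 comparisons share the control valves and are not independent of one another. Without dexfenfluramine replicate 3, the log2 fold change of S100A6 was 1.68 (SE 0.25), with an interval of 1.15 to 2.20, in dexfenfluramine against control.

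Dexfenfluramine and pergolide differ in structure and in primary target, an amphetamine derivative against an ergoline, and their doses differed. By the paper's introduction, drugs linked to valve disease commonly bind the same serotonin receptor with high affinity. Which receptors acted in these valves was not tested. Side by side, S100A6 differed between them by a log2 fold change of -0.04 (SE 0.22), with a 95% interval of -0.49 to 0.41, or 0.713 to 1.33 as a ratio. Without dexfenfluramine replicate 3 the difference was -0.16 (SE 0.22), with an interval of -0.62 to 0.30. The interval leaves room for a difference of either sign.

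Ranked by log2 fold change among the 8683 tested genes, S100A6 was number 18 from the top in dexfenfluramine against control, with 0.196% of genes higher. It was number 30 in pergolide against control, with 0.334% of genes higher. In serotonin against control, 75.3% of the genes had a higher log2 fold change than S100A6. Without dexfenfluramine replicate 3, S100A6 was number 38 of 8754 tested genes in dexfenfluramine against control.

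**Figure D2:**
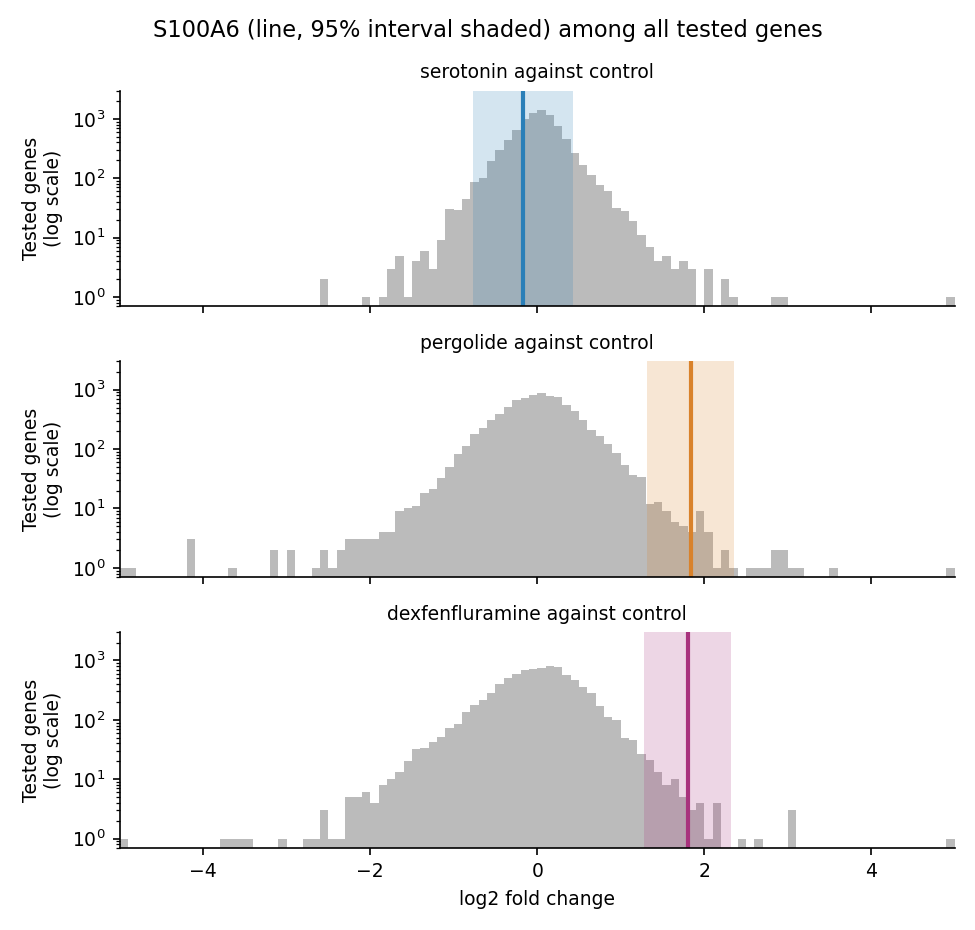
Number of tested genes, on a log axis, in bins of log2 fold change for each treatment against control. The vertical line marks S100A6 and the shaded band its 95% interval, and the outermost bins also hold the few genes beyond the axis. S100A6 lies in the upper tail for pergolide (1.84) and dexfenfluramine (1.80) and below the middle for serotonin (-0.17), where 75.3% of genes were higher.

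Across all genes, edgeR's quasi-likelihood test with Benjamini-Hochberg adjustment called 103 genes (1.19%) in serotonin against control. It called 2158 (24.9%) in pergolide and 2507 (28.9%) in dexfenfluramine against control. The dexfenfluramine count was 2133 without replicate 3. In pergolide, 1052 genes (12.1%) were higher and 1106 (12.7%) lower, and in dexfenfluramine 1172 (13.5%) were higher and 1335 (15.4%) lower. This balance turned with upper-quartile normalization, to 1112 higher and 1029 lower in pergolide and 1370 higher and 1185 lower in dexfenfluramine. In dexfenfluramine against pergolide edgeR called 0 genes (0%), with 614 at an unadjusted p under 0.05, while DESeq2 called 4 and limma-voom 0. The serotonin count depended on single valves. It was 0 without control replicate 2, control replicate 5 or serotonin replicate 1, 3 without control replicate 4, 4 without serotonin replicate 2, 21 without serotonin replicate 4, 50 without serotonin replicate 5 and 261 without control replicate 3.

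Within groups, S100A6 varied more than most genes of its level. Its biological coefficient of variation estimated by edgeR was 22.1%, against a median of 15.3% in 1586 genes within 0.5 of its average log2 CPM of 3.83, and 80.1% of those genes had a smaller value. The ratio of the highest to the lowest valve was 2.27 in control, 2.89 in serotonin, 1.56 in pergolide and 1.76 in dexfenfluramine. Counting error alone, at the mean read number of each group, would give a coefficient of variation of 20.4% in control, 22.7% in serotonin, 9.28% in pergolide and 9.37% in dexfenfluramine. The observed coefficients of S100A6 were 33.1%, 42.8%, 18.0% and 24.9% in the same order.

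The composition of the libraries moved with the groups. A single gene without a symbol here took on average 40.7% of the reads in control, 35.9% in serotonin, 32.9% in pergolide and 29.1% in dexfenfluramine. With library sizes computed without that gene, S100A6 was at 9.14 CPM in control, 7.97 in serotonin, 32.7 in pergolide and 32.1 in dexfenfluramine. The log2 fold change of S100A6 was then 1.81 for pergolide and 1.78 for dexfenfluramine, each as large as with full library sizes to within its SE.

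Of 18 other members of the S100 family, 3 had a symbol here, S100A1, S100A13 and S100B, and all 3 were tested. The symbols come from that supplementary list, which holds the genes the study called differentially expressed in these valves. The members found are therefore not a neutral sample of a list, here and in each list that follows. None was called in serotonin against control, and 1 of 3 was called lower in pergolide and 1 of 3 in dexfenfluramine, where 12.7% and 15.4% of all tested genes were called lower. In either direction, 24.9% and 28.9% of all tested genes were called. These shares cover genes with and without a symbol, and the share among genes with a symbol was not computed. They are therefore not a like background for the members of this list or of those below. The member called in dexfenfluramine was S100A13 in place of S100A1 when dexfenfluramine replicate 3 was left out. The median log2 fold change of the 3 was -0.71 in pergolide and -0.34 in dexfenfluramine (-0.50 without replicate 3), beside 0.02 and 0.03 over all tested genes.

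S100A1, a family member of heart and skeletal muscle that regulates calcium handling, went the other way from S100A6 in both drugs. It had 27.3 ± 10.3 CPM (SD, n = 5) in control, 15.7 ± 7.45 in serotonin, 16.5 ± 5.56 in pergolide and 11.7 ± 6.16 in dexfenfluramine. In dexfenfluramine its log2 fold change was -1.20 (SE 0.40, adjusted p = 0.029 by edgeR with Benjamini-Hochberg adjustment), and 2 of 5 valves were below all control valves. The call was lost without control replicate 1, 2 or 5 or dexfenfluramine replicate 2, 3 or 4, with edgeR Benjamini-Hochberg adjusted p up to 0.067, and in a fit of 2 groups. The value without dexfenfluramine replicate 3 was -0.94 (SE 0.35). With surrogate variables from svaseq in limma-voom, the S100A1 log2 fold change turned to 0.16 in both drugs. Without these variables it was -0.71 (SE 0.39) in pergolide, not called. In serotonin S100A1 had -0.79 (SE 0.40), also not called, and S100A6 was on the same side there, at -0.17 (SE 0.29).

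S100A13, a widely expressed member involved in the release of proteins without a signal peptide, had 32.4 ± 6.68 CPM (SD, n = 5) in control and 45.0 ± 4.66 in serotonin. It had 26.4 ± 6.15 CPM in pergolide and 25.5 ± 6.14 in dexfenfluramine, with log2 fold changes against control of -0.30 (SE 0.17) and -0.34 (SE 0.17), neither called. Without dexfenfluramine replicate 3, where S100A13 was at 36.1 CPM, the log2 fold change was -0.50 (adjusted p = 0.030 by edgeR with Benjamini-Hochberg adjustment). The opposite direction from S100A6 was therefore a call in dexfenfluramine only without that valve.

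S100B, a marker of Schwann cells and other glia, had 20.6 ± 9.91 CPM (SD, n = 5) in control, 19.0 ± 8.31 in serotonin, 10.5 ± 3.10 in pergolide and 18.5 ± 4.38 in dexfenfluramine. In pergolide its log2 fold change was -0.94 (SE 0.32, adjusted p = 0.033 by edgeR with Benjamini-Hochberg adjustment), and 3 of 5 valves were below all control valves. The call was lost without control replicate 1 or 4 or pergolide replicate 1, 2 or 5, with edgeR Benjamini-Hochberg adjusted p up to 0.13, with limma-voom and with svaseq variables. In dexfenfluramine the log2 fold change of S100B was -0.13 (SE 0.30), with 0.16 without control replicate 1 and -0.02 without dexfenfluramine replicate 3. Whether S100B differed between the drugs was tested directly, and dexfenfluramine against pergolide gave 0.82 (SE 0.31, adjusted p = 0.65 by edgeR with Benjamini-Hochberg adjustment), or 0.92 without dexfenfluramine replicate 3.

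Of 27 proteins known to bind S100A6, 10 had a symbol and were tested. In pergolide 1 was called higher and 3 lower, beside 12.1% and 12.7% of all tested genes. In dexfenfluramine 1 was called higher and 5 lower, beside 13.5% and 15.4%, and none was called in serotonin. Their median log2 fold change was -0.34 in pergolide and -0.44 in dexfenfluramine (-0.46 without replicate 3), beside 0.02 and 0.03 over all tested genes. Without dexfenfluramine replicate 3 the counts were 1 higher and 5 lower, but not of the same genes: TMOD1 lost its call and TPM2, a tropomyosin, gained one. TPM2, named after its values were seen, was among the 3 called lower in pergolide, at -0.65 (SE 0.17, adjusted p = 0.0090 by edgeR with Benjamini-Hochberg adjustment), with 5 of 5 valves below all control valves, and with svaseq variables it was -0.41 and not called. In dexfenfluramine it had -0.43 (SE 0.17), not called, and was called without control replicate 2 (-0.50), control replicate 3 (-0.50) or dexfenfluramine replicate 3 (-0.54). CACYBP itself, which binds S100A6 through its C-terminal part, had log2 fold changes of -0.06 (SE 0.14) in pergolide and -0.31 (SE 0.14) in dexfenfluramine (-0.27 without replicate 3) and was not called. It was called in dexfenfluramine without control replicate 3 (-0.38), and with svaseq variables it turned to 0.39 in pergolide, where it was called, and 0.22 in dexfenfluramine.

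ANXA5, a calcium-dependent phospholipid-binding annexin, was the 1 partner called higher in either drug. It had 169 ± 23.8 CPM (SD, n = 5) in control, 219 ± 21.5 in pergolide and 228 ± 22.3 in dexfenfluramine. Its log2 fold change was 0.37 (SE 0.10, adjusted p = 0.011 by edgeR with Benjamini-Hochberg adjustment) in pergolide, with 4 of 5 valves above all control valves. In dexfenfluramine it was 0.43 (SE 0.10, adjusted p = 0.0036 by the same edgeR test with Benjamini-Hochberg adjustment), with 5 of 5 valves above, and 0.37 without replicate 3. With svaseq variables ANXA5 had 0.28 in each drug and was called in neither. Of 12 annexins, 3 had a symbol, and ANXA5 was the 1 called in either drug, where 24.9% and 28.9% of all tested genes were called. The median log2 fold change of the 3 annexins was 0.21 in pergolide and 0.43 in dexfenfluramine (0.34 without replicate 3).

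FKBP4, a co-chaperone of HSP90, was lower in both drugs, with all 5 valves of each drug below all control valves. Its log2 fold change was -0.72 (SE 0.16, adjusted p = 0.0022 by edgeR with Benjamini-Hochberg adjustment) in pergolide. In dexfenfluramine it was -0.80 (SE 0.16, adjusted p = 0.00075 by edgeR with Benjamini-Hochberg adjustment), and -0.72 without replicate 3. GAPDH, a glycolytic enzyme reported to bind S100A6, was also lower, by -0.80 (SE 0.25, adjusted p = 0.022 by edgeR with Benjamini-Hochberg adjustment) in pergolide. In dexfenfluramine the GAPDH value was -1.04 (SE 0.25, adjusted p = 0.0037 by edgeR with Benjamini-Hochberg adjustment), and -0.89 without replicate 3. In each drug 2 of 5 valves were below all control valves. The pergolide call of GAPDH was lost without control replicate 1 or pergolide replicate 4 or 5, with edgeR Benjamini-Hochberg adjusted p up to 0.071. With surrogate variables from svaseq in limma-voom, the log2 fold change of GAPDH was -0.10 in pergolide and -0.08 in dexfenfluramine, and neither was called. In that fit FKBP4 had -0.29 in pergolide and -0.26 in dexfenfluramine, and neither was called.

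The other named partners are proteins of striated muscle and its thin filaments. TPM1, a tropomyosin, had a log2 fold change of -1.15 (SE 0.32) in dexfenfluramine, with adjusted p = 0.010 by edgeR and Benjamini-Hochberg adjustment, and 2 of 5 valves were below all control valves. TMOD1, which caps the pointed ends of actin filaments, had -0.45 (SE 0.16, adjusted p = 0.037 by edgeR with Benjamini-Hochberg adjustment), with 3 of 5 valves below. Its call was lost without control replicate 4 or dexfenfluramine replicate 2, 3 or 5, with edgeR Benjamini-Hochberg adjusted p up to 0.13, in a fit of 2 groups and with a replicate block. ITGB1BP2, a muscle protein that binds integrin, had -1.02 (SE 0.27, adjusted p = 0.0072 by edgeR with Benjamini-Hochberg adjustment), with 3 of 5 valves below. With dexfenfluramine replicate 3 left out, TPM1 had -0.91, TMOD1 -0.38 and ITGB1BP2 -0.81. In pergolide these 3 had -0.73 (SE 0.32), -0.26 (SE 0.16) and -0.43 (SE 0.26) and were not called, but without control replicate 3 TPM1 was called there at -0.91 (adjusted p = 0.033 by edgeR with Benjamini-Hochberg adjustment), and also in a fit of 2 groups.

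Of 24 other EF-hand proteins, 4 had a symbol. In pergolide 1 was called higher and 1 lower, and in dexfenfluramine 1 higher and 3 lower, where 24.9% and 28.9% of all tested genes were called. The median log2 fold change of the 4 was -0.34 in pergolide and -0.52 in dexfenfluramine (-0.55 without replicate 3, with the same calls). CALM3, a calmodulin gene, was lower where S100A6 was higher, with 455 ± 19.0 CPM (SD, n = 5) in control, 248 ± 26.4 in pergolide and 266 ± 19.3 in dexfenfluramine and no overlap with control. Its log2 fold change was -0.87 (SE 0.08, adjusted p = 5.9e-07 by edgeR with Benjamini-Hochberg adjustment) in pergolide. In dexfenfluramine it was -0.77 (SE 0.08, adjusted p = 3.0e-06 by edgeR with Benjamini-Hochberg adjustment), and -0.73 without replicate 3. SPARC, a secreted collagen-binding protein, was higher in both drugs, by 0.50 (SE 0.12, adjusted p = 0.0059 by edgeR with Benjamini-Hochberg adjustment) in pergolide. In dexfenfluramine SPARC rose by 0.57 (SE 0.12, adjusted p = 0.0020 by edgeR with Benjamini-Hochberg adjustment), or 0.45 without replicate 3, and all 5 valves of each drug were above all control valves.

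CETN2, a centrosomal EF-hand protein, had 3.53 ± 1.38 CPM (SD, n = 5) in control, 7.92 ± 1.64 in serotonin, 2.56 ± 1.29 in pergolide and 1.51 ± 0.798 in dexfenfluramine. Its log2 fold change was 1.19 (SE 0.33) in serotonin and -0.43 (SE 0.36) in pergolide, neither called. In dexfenfluramine it was -1.16 (SE 0.38, adjusted p = 0.028 by edgeR with Benjamini-Hochberg adjustment), with 4 of 5 valves below all control valves. The call was lost without control replicate 1 or 4 or dexfenfluramine replicate 1, 2 or 5, with edgeR Benjamini-Hochberg adjusted p up to 0.076, and the value without dexfenfluramine replicate 3 was -1.19. CALU, a resident of the secretory pathway, had -0.27 (SE 0.10, adjusted p = 0.0499 by edgeR with Benjamini-Hochberg adjustment) in dexfenfluramine, with 4 of 5 valves below. That call was lost without control replicate 1, 2 or 3 or dexfenfluramine replicate 1, 2, 4 or 5, with edgeR Benjamini-Hochberg adjusted p up to 0.13. It was also lost with at least 10 counts in every valve, no filter, a fit of 2 groups, a replicate block, upper-quartile normalization and svaseq variables, and held without dexfenfluramine replicate 3, at -0.37. In pergolide CALU had -0.26 (SE 0.10) and was called only without control replicate 4 or 5, with adjusted p = 0.043 and 0.048 by edgeR and Benjamini-Hochberg adjustment, and by DESeq2.

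CACYBP and S100A6 meet in the degradation of beta-catenin. Of 10 genes of that pathway, 6 had a symbol, and in pergolide 2 were called higher and 1 lower, where 24.9% of all tested genes were called. In dexfenfluramine edgeR called 0 of the 6, where it called 28.9% of all tested genes, but other settings called 5 of them there. These were SKP1 (0.26 with upper-quartile normalization and 0.39 with svaseq variables), CTNNB1 (0.22 with upper-quartile normalization), TCF7L2 (-0.39 with svaseq variables, and without dexfenfluramine replicate 3), CACYBP (-0.38 without control replicate 3) and LEF1. LEF1, named after its values were seen, had 0.47 (SE 0.20) in dexfenfluramine, 0.59 and called without dexfenfluramine replicate 2, and 0.35 without replicate 3. CTNNB1, which encodes beta-catenin, had a log2 fold change of 0.30 (SE 0.08, adjusted p = 0.0083 by edgeR with Benjamini-Hochberg adjustment) in pergolide, with 5 of 5 valves above all control valves. SKP1, a subunit of the ligase complex, had 0.28 (SE 0.09, adjusted p = 0.030 by edgeR with Benjamini-Hochberg adjustment), with 5 of 5 valves above. The SKP1 call was lost without control replicate 3 or 5 or pergolide replicate 1, 3 or 4, with edgeR Benjamini-Hochberg adjusted p up to 0.077. TCF7L2, a transcription factor that acts with beta-catenin, had -0.39 (SE 0.10, adjusted p = 0.0097 by edgeR with Benjamini-Hochberg adjustment), with 5 of 5 valves below. In dexfenfluramine the 3 had 0.17 (SE 0.08), 0.22 (SE 0.09) and -0.17 (SE 0.10), and without replicate 3 they had 0.20, 0.24 and -0.27, where TCF7L2 was called (adjusted p = 0.037 by edgeR with Benjamini-Hochberg adjustment).

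Of 15 genes of the growth response, 4 had a symbol, and 2 were called higher in each drug, beside 12.1% of all tested genes in pergolide and 13.5% in dexfenfluramine. Their median log2 fold change was 0.24 in pergolide and 0.39 in dexfenfluramine (0.31 without replicate 3). PDGFRB, a receptor of platelet-derived growth factor, had a log2 fold change of 0.75 (SE 0.14, adjusted p = 0.00051 by edgeR with Benjamini-Hochberg adjustment) in pergolide. In dexfenfluramine it was 0.76 (SE 0.14, adjusted p = 0.00037 by edgeR with Benjamini-Hochberg adjustment), or 0.77 without replicate 3, with all 5 valves of each drug above all control valves. EGFR, the epidermal growth factor receptor, had 0.55 (SE 0.13, adjusted p = 0.0047 by edgeR with Benjamini-Hochberg adjustment) in pergolide. In dexfenfluramine EGFR had 0.41 (SE 0.13, adjusted p = 0.027 by edgeR with Benjamini-Hochberg adjustment), with 4 of 5 valves of each drug above. That call was lost without control replicate 1, 4 or 5 or dexfenfluramine replicate 1 or 3, with edgeR Benjamini-Hochberg adjusted p up to 0.068, so without dexfenfluramine replicate 3, where EGFR had 0.38, only 1 of the 4 genes was called.

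Of 24 mesenchymal and matrix genes, 11 had a symbol, of which 8 were called higher in pergolide and 7 in dexfenfluramine, with 0 lower. Over all tested genes, 12.1% were called higher in pergolide and 13.5% in dexfenfluramine. Their median log2 fold change was 0.65 in pergolide and 0.66 in dexfenfluramine, beside 0.02 and 0.03 over all tested genes. The same 7 were called when dexfenfluramine replicate 3 was left out, with a median of 0.53. S100A6 itself, with 1.84 and 1.80, lay above each of the 6 members named here, which its selection for a large difference favours.

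The fibrillar collagen genes COL3A1, COL1A2 and COL1A1 had log2 fold changes of 1.00 (SE 0.17), 0.91 (SE 0.17) and 1.07 (SE 0.24) in pergolide. In dexfenfluramine they had 0.95 (SE 0.17), 0.96 (SE 0.17) and 1.15 (SE 0.24), and without replicate 3 they had 0.87, 0.86 and 1.08. The largest of the 6 edgeR Benjamini-Hochberg adjusted p-values was 0.0029, that of COL1A1 in pergolide, where 3 of 5 valves were above all control valves. With svaseq variables COL3A1, COL1A2 and COL1A1 had 0.80, 0.58 and 0.38 in pergolide and 0.70, 0.53 and 0.36 in dexfenfluramine. COL1A1 was then called in neither drug, and COL1A2 not in dexfenfluramine. TAGLN2, a transgelin that binds actin, had 0.65 (SE 0.16, adjusted p = 0.0053 by edgeR with Benjamini-Hochberg adjustment) in pergolide. In dexfenfluramine TAGLN2 had 0.99 (SE 0.16, adjusted p = 0.00014 by edgeR with Benjamini-Hochberg adjustment), or 0.85 without replicate 3, with 5 of 5 valves of each drug above all control valves.

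CNN3, an actin-binding calponin, had 0.40 (SE 0.11, adjusted p = 0.012 by edgeR with Benjamini-Hochberg adjustment) in pergolide and 5 of 5 valves above all control valves. In dexfenfluramine it had 0.46 (SE 0.11, adjusted p = 0.0041 by edgeR with Benjamini-Hochberg adjustment), again with 5 of 5, and 0.39 without replicate 3. TAGLN, a marker of smooth muscle and myofibroblasts, had 1.36 (SE 0.35, adjusted p = 0.0063 by edgeR with Benjamini-Hochberg adjustment) in dexfenfluramine, with 4 of 5 valves above, and 1.24 without replicate 3. In pergolide TAGLN had 0.99 (SE 0.36, adjusted p = 0.048 by edgeR with Benjamini-Hochberg adjustment), also with 4 of 5. The pergolide call was lost without control replicate 1, 2, 3 or 4 or pergolide replicate 1, 3, 4 or 5, with edgeR Benjamini-Hochberg adjusted p up to 0.11. It was also lost with DESeq2 size factors, library size without the largest gene, limma-voom, no filter, a replicate block and svaseq variables. Other smooth muscle markers did not move with TAGLN. In dexfenfluramine MYH11 and MYOCD were called lower, and DES had -0.37 (SE 0.27), not called. In pergolide MYOCD was called lower, while MYH11 at -0.55 (SE 0.34) and DES at 0.00 (SE 0.27) were not called. Further values of MYH11 and MYOCD are given with the markers.

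Taken over the genes named from the lists, 36 calls were made in the drugs against control. Of these, 36 held with DESeq2, 35 with its size factors in edgeR, 34 with limma-voom, 34 without a filter, 33 with a replicate block and 33 in fits of 2 groups. When each valve was left out in turn, 27 held every time and 9 were lost at least once. By its methods, the study used limma-voom, with unwanted variation identified by svaseq and RUVr. In the nearest fit here, limma-voom with surrogate variables from svaseq, 25 of the 36 were lost, 11 held and 3 were gained. Those that held were CALM3, COL3A1 and TAGLN2 in both drugs, CNN3, COL1A2, SKP1 and TCF7L2 in pergolide and ITGB1BP2 in dexfenfluramine. Those gained were SKP1 and TCF7L2 in dexfenfluramine and CETN2 in serotonin (1.72). In that fit the log2 fold change of S100A6 was 1.70 (SE 0.32) in pergolide and 1.51 (SE 0.33) in dexfenfluramine.

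**Figure D3:**
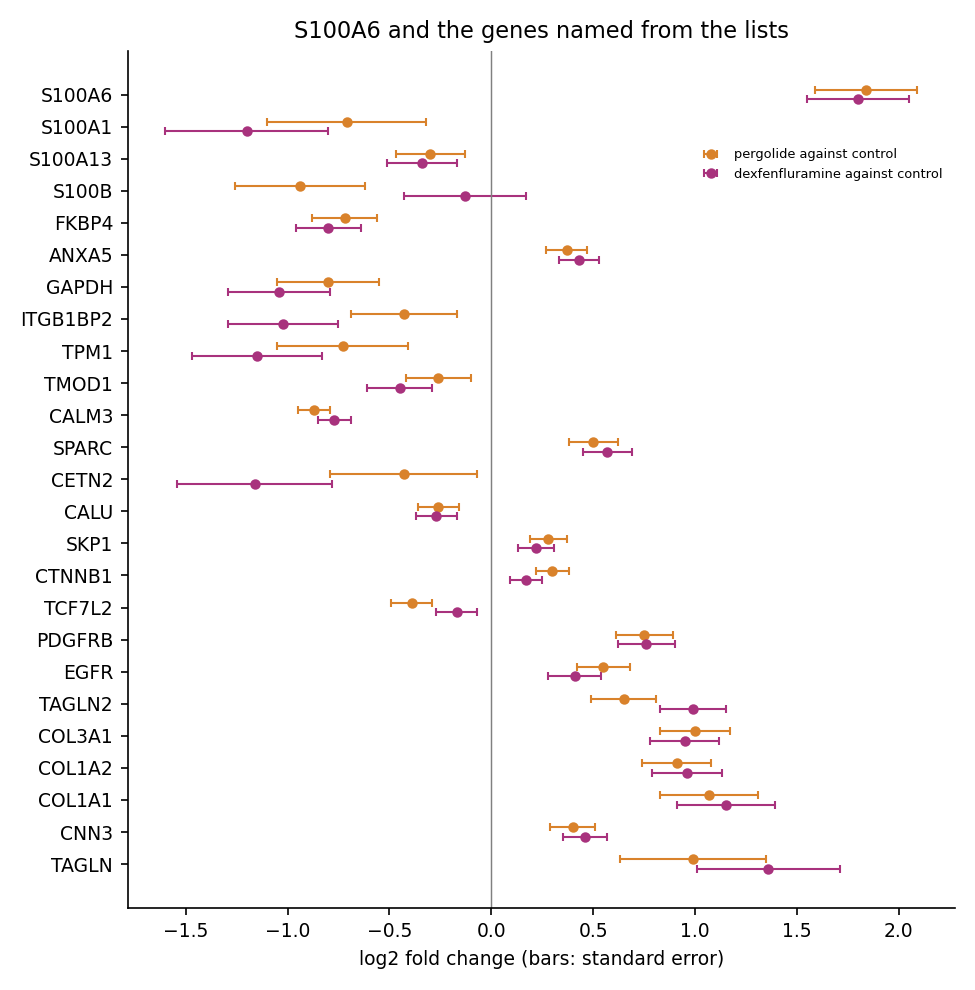
Log2 fold change of S100A6 and of the genes named from the lists in pergolide and dexfenfluramine against control, with standard errors as bars. S100A6 is at 1.84 and 1.80, the matrix genes are on the same side at smaller values, and S100A1, FKBP4 and CALM3 are on the other side.

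Markers of several cell types differed between the groups. Of 20 cardiomyocyte markers 12 had a symbol, TTN was the most abundant, and none of the 12 was at 0 in all valves. Their summed level was 143783, 107387, 49711, 152323 and 98042 CPM in the control valves and 53730, 104874, 60872, 97986 and 64084 CPM in the serotonin valves. It was 82765, 92763, 93125, 53000 and 48304 CPM in pergolide and 71363, 52864, 12546, 60855 and 71839 CPM in dexfenfluramine. The groups overlapped, and dexfenfluramine replicate 3, which had the highest S100A6 level, had the lowest cardiomyocyte sum. Of the 12 genes, 1 was called lower in pergolide and 4 in dexfenfluramine, beside 12.7% and 15.4% of all tested genes, and the median log2 fold change was -0.64 and -0.98 (-0.71 without dexfenfluramine replicate 3). The mean sum in dexfenfluramine was 53893 CPM, and 64230 CPM without replicate 3. Those called, named after their values were seen, were the sarcomere genes TNNT2 in both drugs (-2.27, SE 0.45, and -2.79, SE 0.46) and MYH7 and TNNC1 and the calcium pump regulator PLN in dexfenfluramine (-1.45, SE 0.44, -1.84, SE 0.49, and -1.24, SE 0.35). In the same order the 4 dexfenfluramine values were -2.53, -1.18, -1.56 and -0.99 without replicate 3, all called. With svaseq variables TNNT2 had -1.39 and -1.59 and was called, while MYH7, TNNC1 and PLN fell to -0.04, -0.14 and -0.34 in dexfenfluramine and were not. The call of MYH7 was also lost in a fit of 2 groups and without control replicate 1, and without control replicate 3 MYH7, TNNC1 and PLN were called in pergolide, TNNC1 also without pergolide replicate 3. Their part in the S100A6 difference was not tested.

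Of 15 markers of valvular interstitial cells and fibroblasts, 12 had a symbol and VIM was the most abundant overall. Their summed level was 11658, 10919, 12912, 8066 and 9958 CPM in control and 12370, 9951, 13526, 11958 and 12456 CPM in serotonin. It was 12377, 13450, 12501, 15464 and 16341 CPM in pergolide and 14285, 15106, 20628, 12968 and 14155 CPM in dexfenfluramine. The drug groups were on average higher, with pergolide overlapping control and serotonin and dexfenfluramine overlapping serotonin. In each drug 8 of the 12 were called higher, beside 12.1% of all tested genes in pergolide and 13.5% in dexfenfluramine, and in dexfenfluramine 7 without replicate 3. In serotonin 1 of the 12 was called higher, where 1.19% of all tested genes were called. The mean sum in dexfenfluramine was 15429 CPM, and 14129 CPM without replicate 3. Their part in the S100A6 difference was not tested.

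**Figure D4:**
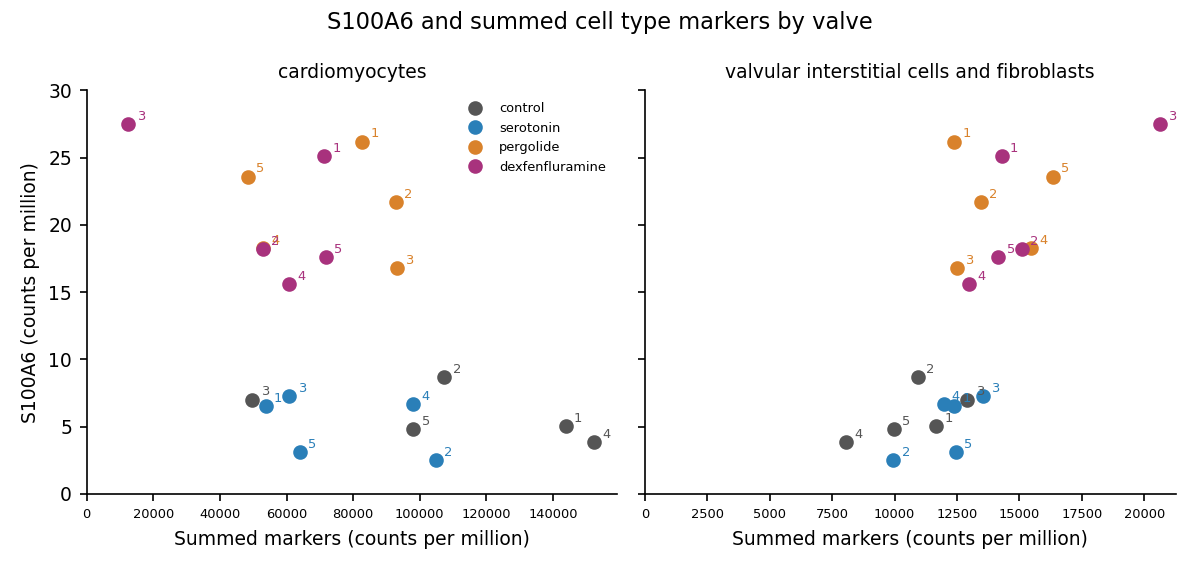
S100A6 in CPM against the summed level of cardiomyocyte markers (left) and of markers of valvular interstitial cells and fibroblasts (right), 1 point per valve with its replicate number. Dexfenfluramine replicate 3 has the lowest cardiomyocyte sum and the highest interstitial cell sum, 12546 and 20628 CPM.

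Fewer markers of the other cell types could be matched, and the genes named from them were chosen after their values were seen. For macrophages and other leukocytes 1 of 10 had a symbol, CD53, which moved with S100A6 in the drugs. It had 2.87 ± 0.993 CPM (SD, n = 5) in control, 4.04 ± 0.774 in serotonin, 6.94 ± 2.36 in pergolide and 6.75 ± 0.596 in dexfenfluramine. In serotonin its log2 fold change was 0.47 (SE 0.29), not called, where that of S100A6 was -0.17. In the drugs CD53 had 1.26 (SE 0.26) and 1.22 (SE 0.26), called higher by edgeR in both, beside 12.1% and 13.5% of all tested genes. Without replicate 3 it had 1.21 in dexfenfluramine. The study's staining showed no macrophage infiltration of the leaflets with any treatment. For smooth muscle and myofibroblasts 4 of 7 had a symbol, with DES the most abundant and summed means of 497 CPM in control, 412 in serotonin, 450 in pergolide and 347 in dexfenfluramine (403 without replicate 3). In dexfenfluramine TAGLN was called higher and 2 were called lower, beside 13.5% and 15.4% of all tested genes, and the median of the 4 was -0.73. Those lower were MYH11, a myosin of smooth muscle, at -1.41 (SE 0.36) and MYOCD, a transcriptional coactivator, at -1.09 (SE 0.31). Without replicate 3 these were -1.20 and -0.83, both called, with a median of -0.50. With svaseq variables they were -0.24 and -0.52, neither called. In pergolide TAGLN was called higher and MYOCD lower, at -0.95 (SE 0.31), beside 12.1% and 12.7% of all tested genes, and the median was -0.28. The MYOCD call was lost there without control replicate 1 or 4 or pergolide replicate 1, 4 or 5 and with limma-voom. For adipocytes 3 of 9 had a symbol, with ADIPOQ the most abundant and summed means of 35.8, 73.1, 122 and 57.3 CPM in the same order (70.8 in dexfenfluramine without replicate 3).

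All 3 adipocyte markers were called higher in pergolide, where 12.1% of all tested genes were called higher. ADIPOQ was at 1.46 (SE 0.51), LEP at 2.24 (SE 0.71) and CIDEA at 2.86 (SE 0.66), the last 2 above S100A6. None of the 3 was called in dexfenfluramine, where 13.5% of all tested genes were called higher and 15.4% lower. There ADIPOQ had 0.52, LEP 0.66 and CIDEA 1.48. Without replicate 3 they had 0.82, 0.98 and 1.80, and CIDEA was called. The pergolide call of ADIPOQ was lost without control replicate 1, 2, 3 or 5 or pergolide replicate 1, 2 or 5, and that of LEP without control replicate 2 or 5 or pergolide replicate 1, with edgeR Benjamini-Hochberg adjusted p up to 0.096 and 0.064. Both were also lost with limma-voom, and that of ADIPOQ with a replicate block. With svaseq variables none of the 3 was called in pergolide, where ADIPOQ had 0.80, LEP 0.42 and CIDEA 1.59. Their part in the S100A6 difference was not tested.

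For endothelial cells 2 of 9 had a symbol, with PECAM1 the most abundant and mean sums of both genes of 266 CPM in control, 296 in serotonin, 165 in pergolide and 214 in dexfenfluramine (202 without replicate 3). Both were called lower in pergolide, PECAM1 at -0.74 (SE 0.21) and EMCN at -0.54 (SE 0.18), where 12.7% of all tested genes were called lower. The EMCN call was lost without control replicate 2, 3 or 5 or pergolide replicate 2, 3 or 5, in a fit of 2 groups and with a replicate block. With svaseq variables the 2 genes had -0.38 and -0.21, neither called. In dexfenfluramine, where 15.4% of all tested genes were called lower, neither was called, at -0.32 and -0.29 (-0.41 and -0.36 without replicate 3). PECAM1 was called there without control replicate 4, at -0.51. Of the calls of marker genes named after their values were seen, those of CD53 and TNNT2 in both drugs and of MYOCD in pergolide held with svaseq variables. For Schwann cells and nerve 2 of 6 had a symbol, with S100B the most abundant and mean sums of both genes of 28.3, 26.8, 23.5 and 29.3 CPM in the same order (32.4 in dexfenfluramine without replicate 3). None of the matched markers was at 0 in all valves, and none of the markers of chondrocytes (5), erythroid cells (4) or mesothelial and epithelial cells (7) had a symbol here. The part of these cells in the S100A6 difference was not tested.

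Likeness to S100A6 was measured as Pearson's r of log2 CPM over the 20 valves, a description without a p-value. Because S100A6 separates the drug-treated valves from the others, a high r mostly reflects that separation, and r is also given after the group means were taken out. The 6 genes with a symbol that were most like S100A6, among 3416, had r of 0.941 to 0.961. They were AP2B1, a subunit of the clathrin adaptor at the plasma membrane, XPNPEP1, an aminopeptidase, LAMP2, a lysosomal membrane protein, TMED7, a cargo protein of the early secretory pathway, CCNT1, a cyclin of transcription elongation, and APAF1, the core of the apoptosome. With group means taken out, their r was 0.583 to 0.764. The genes were picked on r over the same valves, and the within-group part is a component of that r. Their r with group means taken out is therefore favoured by the choice, also for the 6 most opposite genes below. The choice of the 6 depended on the measure: 1 of them was among the first 6 by Spearman's rho and 1 with group means taken out, against 5 without dexfenfluramine replicate 3.

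AP2B1 was the most like S100A6, with r = 0.961 over 20 valves, Spearman's rho of 0.913, 0.957 without dexfenfluramine replicate 3 and 0.734 with group means taken out. It had 68.9 ± 7.33 CPM (SD, n = 5) in control, 69.2 ± 6.39 in serotonin, 121 ± 4.14 in pergolide and 115 ± 8.36 in dexfenfluramine. Its log2 fold change was 0.80 (SE 0.08) in pergolide and 0.74 (SE 0.08) in dexfenfluramine (0.70 without replicate 3), smaller than that of S100A6. TMED7 had the largest log2 fold changes of the 6, 1.21 (SE 0.14) and 1.12 (SE 0.14), and CCNT1 the smallest, 0.36 (SE 0.09) and 0.35 (SE 0.09). Without replicate 3 the dexfenfluramine values of TMED7 and CCNT1 were 1.09 and 0.35.

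The 6 genes most opposite to S100A6 were PAIP2, which restrains translation through the poly(A)-binding protein, the RNA-binding proteins HNRNPA2B1, HNRNPU and HNRNPH3, DTNBP1, a protein of endosomal trafficking, and DNAJC8, a co-chaperone associated with splicing. PAIP2 had r = -0.965 over 20 valves, -0.962 without dexfenfluramine replicate 3 and -0.761 with group means taken out. HNRNPA2B1, with r = -0.958, had 263 ± 23.4 CPM (SD, n = 5) in control, 270 ± 27.3 in serotonin, 131 ± 11.5 in pergolide and 140 ± 6.16 in dexfenfluramine. DTNBP1, with r = -0.951, had the largest log2 fold changes of the 6, -1.15 (SE 0.20) in pergolide and -1.20 (SE 0.20) in dexfenfluramine (-1.09 without replicate 3). Among 8488 genes with or without a symbol, 36 had r of at least 0.9 with S100A6 and 111 had r of at most -0.9.

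**Figure D5:**
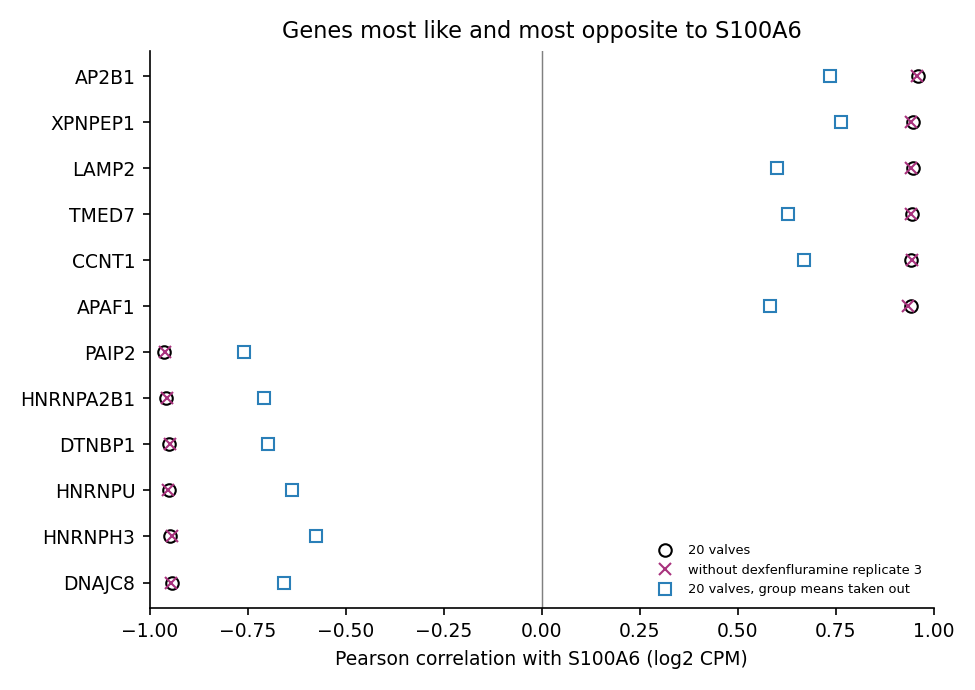
Pearson correlation of log2 CPM with S100A6 for the 6 most like and the 6 most opposite genes, over 20 valves, without dexfenfluramine replicate 3 and with group means taken out. Over 20 valves the values lie beyond 0.94 in size. With group means taken out they are smaller and keep their sign, which the choice of the genes on the same valves favours.

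S100A6 lies in the cluster of S100 genes on chromosome 7 of the RefSeq assembly mOryCun1.1, which is not the build of the counts and was used only for gene order. Among the 5 nearest genes with a symbol here on either side, S100A13 and S100A1 come first on 1 side. Next are CHTOP, an RNA-export protein, SNAPIN, a protein of vesicle docking, and SLC27A3, a fatty acid transporter. On the other side the nearest, MRPL9, is 63 genes away, followed by SNX27, TUFT1, CGN and PSMB4. None of the 10 had a log2 fold change as high as S100A6 in either drug, which is likely for any genes, since S100A6 was selected for a large difference. The highest was that of SLC27A3 in pergolide, 0.94 (SE 0.29).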

How the data were processed

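Whole-number counts of reads per Ensembl gene were deposited by the authors for 20 valves, without normalization. By the study's methods and the submitters' processing notes, ribosomal RNA was depleted, stranded libraries were aligned to rabbit oryCun2 with TopHat2 2.1.1, and HTSeq counted reads in union mode. The annotation release, strand setting and treatment of reads with several alignments are not given in the sources used here, so reads shared with near-identical genes, or with overlapping neighbours of S100A6, could not be told apart.

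In edgeR 4.0.16 (R 4.3.3), library sizes were scaled by TMM, weakly counted genes left out by filterByExpr over the 4 groups, and the rest tested by edgeR's quasi-likelihood test in 1 fit of all 20 valves, with Benjamini-Hochberg adjustment over 8683 genes and a threshold of 0.05. CPM use TMM library sizes, and log2 CPM a prior count of 2. The code was tested on simulated data. Python 3.11.15, numpy 2.4.6, scipy 1.17.1, pandas 2.3.3 and matplotlib 3.10.9 made the summaries and plots.

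Symbols came from the study's supplementary gene list alone: 3517 identifiers matched, some after extra leading zeros were removed, and 276 shortened ones were not used. S100A6 and the lists were chosen with earlier results of these data known. Named genes are S100A6, each S100 family member found, from each other list up to 6 members called in either drug against control by smallest p for dexfenfluramine, the 6 genes with a symbol and a mean log2 CPM of at least 1 with the highest and the 6 with the lowest correlation with S100A6, and the 5 nearest genes with a symbol on either side, in RefSeq order (mOryCun1.1); further markers, TPM2, CACYBP and LEF1 were named after their values were seen. Alternatives were DESeq2 1.42.0 and its size factors, upper-quartile normalization, limma-voom (limma 3.58.1), svaseq (sva 3.50.0, 4 surrogate variables), dropping the filter, a minimum of 10 counts in all valves, a replicate block, fits of 2 groups, library size without the largest gene, and each valve left out. Of these, limma-voom with svaseq variables is the nearest to the study's own analysis, which also used RUVr.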

Additional observations from a re-analysis of the deposited data

Results flagged for a closer look

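In 13 of 164 groups of 5 valves, a valve was far from the others by Dixon's ratio (critical value 0.71), where chance gives about 1 in 20, or 8.20. S100A6 was not among them in any group. For markers, the summed level of valvular interstitial cells and fibroblasts was 20628 CPM in dexfenfluramine replicate 3, against 12968 to 15106 in the others, and that of adipocytes was 69.9 CPM in control replicate 4, against 21.9 to 33.9.

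In dexfenfluramine, replicate 3 also stood apart for S100A13, at 36.1 CPM against 21.3 to 25.5, and for TPM1, at 289 CPM against 1060 to 1279. DNAJC8 was at 27.3 CPM in dexfenfluramine replicate 1, against 32.5 to 33.8 in the others.

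In control, CALM3 was at 422 CPM in replicate 1 (others 459 to 470), EGFR at 29.2 CPM in replicate 2 (21.8 to 23.0) and SPARC at 636 CPM in replicate 3 (518 to 538). Control replicate 4 had 73.1 CPM of CNN3 (95.1 to 102) and 161 CPM of TMOD1 (91.5 to 109).

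In pergolide replicate 5, TMED7 was at 34.1 CPM (25.1 to 27.6) and COL3A1 at 2772 CPM (1784 to 2024), and in serotonin replicate 3, TAGLN2 was at 70.0 CPM (46.1 to 51.9).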

How the results depend on the processing

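Over 19 alternatives each, the log2 fold change of S100A6 ran from 1.70 to 1.99 in pergolide and from 1.51 to 1.96 in dexfenfluramine against control, from -0.31 to -0.01 in serotonin, and from -0.19 to 0.05 in dexfenfluramine against pergolide. With each valve left out it ran from 1.71 to 1.99, 1.68 to 1.96, -0.31 to -0.01 and -0.16 to 0.05. A filter of at least 10 counts in every valve gave no S100A6 value, because serotonin replicate 2 had 8. Library sizes without the largest gene raised mean S100A6 to 9.14, 7.97, 32.7 and 32.1 CPM in control, serotonin, pergolide and dexfenfluramine, since that scaling raises CPM by construction.

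Genes called in serotonin against control were 234 with DESeq2, 53 with its size factors, 58 with at least 10 counts in every valve, 37 without the largest gene (chosen after seeing the data), 48 without a filter and 0 in a fit of 2 groups, and 0 to 261 with each valve left out. Of the 103 calls, 90 were higher and 13 lower, against 55 and 19 with upper-quartile normalization and 28 and 9 without the largest gene. With svaseq variables, calls were 1155 in pergolide and 984 in dexfenfluramine, and 14 instead of 36 for the genes named from the lists: 11 of the 36, and 3 gained, SKP1 and TCF7L2 in dexfenfluramine and CETN2 in serotonin. DESeq2 called 4 genes in dexfenfluramine against pergolide. The cause was not tested.

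Valves with the same number share only a number: their residual correlations ran from -0.342 to 0.492, with 6 of 30 above 0.1, and 3 of 20 valves agreed best with their own number. With a replicate block, 1 gene was called in serotonin, 1988 in pergolide, 2368 in dexfenfluramine against control and 0 between the drugs, and S100A6 had 1.86, 1.79, -0.18 and -0.07 for pergolide, dexfenfluramine, serotonin and between the drugs.

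Of the 6 genes most like S100A6, 1 was among the first 6 by Spearman's rho, 5 with a prior count of 0.5, 5 without dexfenfluramine replicate 3 and 1 with group means taken out. With svaseq variables the log2 fold change changed sign for S100A1 (0.16 in each drug), S100B (0.34 in serotonin, 0.29 in dexfenfluramine), MYH11 in pergolide (0.15), LEP in dexfenfluramine (-0.50), EMCN in dexfenfluramine (0.01), LEF1 in pergolide (0.14) and CACYBP (0.39 in pergolide, 0.22 in dexfenfluramine). CACYBP in pergolide was also 0.04 without control replicate 1, 0.01 without pergolide replicate 4 and -0.13 without control replicate 3 or pergolide replicate 2. LEF1 in pergolide was -0.02 without pergolide replicate 5 and -0.26 without control replicate 4. S100B in serotonin was 0.21 without control replicate 1, 0.07 without serotonin replicate 3 or 5 and -0.25 without serotonin replicate 1, and in dexfenfluramine 0.16 without control replicate 1 and -0.28 without control replicate 2. S100A13 between the drugs was 0.01 without dexfenfluramine replicate 1 or 5 or pergolide replicate 2, 0.05 without pergolide replicate 5 and -0.21 without dexfenfluramine replicate 3. List counts without dexfenfluramine replicate 3, and the alternatives for markers, TPM2, CACYBP and LEF1, were chosen after seeing the data. Depth limits S100A6 most in control and serotonin, with 8 to 40 reads per valve.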
